A study of Poecilia mexicana x Poecilia latipinna and Poecilia formosa with 28 samples.

Results

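Brain and ovary of the same female fish were compared in 2 kinds of hybrid: Poecilia formosa, the Amazon molly, an all-female clone of ancient hybrid origin, and F1 hybrids made in the aquarium from a P. mexicana mother and a P. latipinna father. The libraries were chosen by animal: every fish with a sequenced brain and a sequenced ovary was taken, which gave P. formosa fish 3, 4, 11 and 12 and F1 hybrids 4, 10, 12 and 13, and so 16 of the 28 libraries of the study. All fish were untreated females of 3 months raised alike. The P. formosa fish are siblings of 1 laboratory clone and the hybrids are siblings of 1 brood. The p-values given here set differences against the variation among such siblings, and say nothing of other clones or crosses. The comparison asks how far the expression program that sets brain apart from ovary is shared by an old clonal hybrid and a newly made one.

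Brain RNA comes mainly from neurons and glia, and vertebrate brain is known for transcribing a large part of the genome at low level. The ovary of a live-bearing fish holds oocytes at several stages, which stockpile maternal RNA and protein, and the follicle cells around them, which make steroid hormones. P. formosa lays down unreduced eggs without recombination and needs sperm of a related species only to start development, whereas oocytes of sexual fish go through meiosis.

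Total counts ran from 32460110 to 37706902 in the 8 brains and from 41249726 to 45987727 in the 8 ovaries. The first principal component of log2 CPM (CPM is the count of a gene per 1000000 counts of its library) separated brain from ovary and held 86.9% of the variance, and the second, with 3.82%, separated P. formosa from the hybrids. Genes carry numeric IDs without names in the counts, so neuronal, oocyte and follicle markers could not be looked up and the organ labels could not be checked against them. P. formosa brain 11 stood apart: on the first component it lay at -197, against -222 to -240 for the other P. formosa brains and -239 to -249 for the hybrid brains. P. formosa brain 4 departed the same way but less. The third component held 3.28% of the variance. On it P. formosa brain 4 lay at -49.7 and brain 11 at -111, against 9.07 and 4.14 for brains 3 and 12. The ovaries also spread on it: those of hybrids 12 and 13 lay at -53.2 and -55.0, and those of hybrids 4 and 10 at -17.8 and -23.9. P. formosa ovaries lay at 34.3 to 49.6. The main counts are also given without fish 11, and those of the interaction also without fish 4 and 11.

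More genes were detected in brain than in ovary in every fish. P. formosa fish 3, 4, 11 and 12 had 19457, 19996, 19823 and 19786 genes at 1 CPM or more in brain, against 18126, 18381, 18546 and 18281 in ovary. Hybrids 4, 10, 12 and 13 had 19112, 19211, 18976 and 19390 in brain, against 18188, 18034, 18496 and 18383 in ovary. The gap was 1165 ± 361 genes (SD, n = 8 fish; exact two-sided sign-flip permutation test, p = 0.0078, the smallest p that 8 fish allow, adjusted p = 0.0117 over 3 measures). With totals scaled by TMM, which corrects for the make-up of the RNA, it was 724 genes, and with all libraries thinned to the smallest total it was 1149. The brain gap was wider in the clone, at 1432 ± 156 genes in P. formosa against 897 ± 297 in the hybrids (SD, n = 4 each; exact permutation p = 0.0286, the smallest this design allows, adjusted p = 0.0429), and the lowest P. formosa fish, at 1277, lay above the highest hybrid, at 1177. This difference between the genotypes was not tried with TMM-scaled totals, thinned libraries or a fish left out.

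Although brain used more genes, its RNA was carried by fewer of them. The genes that together held 50% of the counts numbered 1476 ± 44.4 in brain and 1667 ± 47.1 in ovary (SD, n = 8; exact sign-flip p = 0.0078, adjusted p = 0.0117), fewer in brain in all 8 fish. The 10 most counted genes took 4.16% ± 0.67 of a brain library and 3.27% ± 0.24 of an ovary library (SD, n = 8), more in brain in 7 of 8 fish (exact sign-flip p = 0.0156, adjusted p = 0.0156). In P. formosa 156 fewer genes held 50% of the counts in brain than in ovary (156 ± 8.54), and in the hybrids 225 ± 58.9 fewer (SD, n = 4 each; exact permutation p = 0.0286, adjusted p = 0.0429). The gap was widest in hybrids 12 and 13, with 1438 and 1452 genes in brain and 1741 and 1688 in ovary. The genotypes nearly met: P. formosa fish 4 had 1541 in brain and 1709 in ovary, and hybrid 10 had 1438 and 1612. This difference between the genotypes was not tried with a fish left out. For the share of the 10 most counted genes, brain exceeded ovary by 0.67 ± 0.94 percentage points in P. formosa and by 1.12 ± 0.38 in the hybrids (SD, n = 4 each), and the genotypes were not told apart (exact permutation p = 0.4, adjusted p = 0.4).

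**Figure D1:**
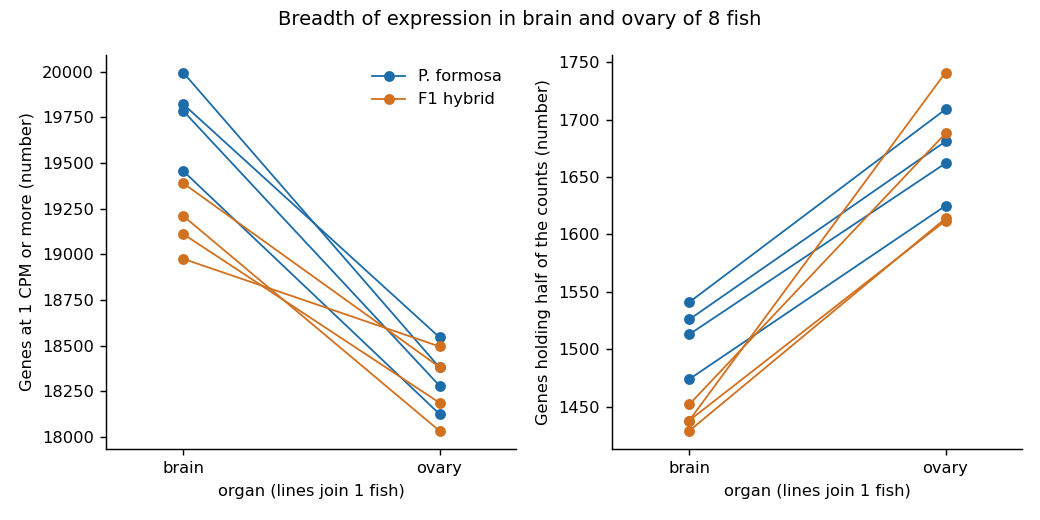
Genes at 1 CPM or more (left) and genes that together hold 50% of the counts (right), in number, in brain and ovary. Each line joins the organs of 1 fish, blue for P. formosa and orange for F1 hybrids, and the vertical axes do not start at 0. Every line falls from brain to ovary on the left and climbs on the right.

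Most of the transcriptome differed between the organs. With fish as a block, 21080 of 24429 genes tested were called (86.3%): 9968 genes were higher in brain and 11112 higher in ovary (edgeR quasi-likelihood test, Benjamini-Hochberg adjusted p under 0.05), which is 40.8% and 45.5% of them. Differences over 2-fold were found for 8283 genes in favour of brain (33.9% of those tested) and 9068 in favour of ovary (37.1%). Differences over 8-fold were found for 3844 and 3503 genes (15.7% and 14.3%). Brain-high genes differed by more and sat lower: their median difference was 2.38 on the log2 scale at a median level of 18.5 CPM in brain, against 2.07 and 37.6 CPM in ovary for the ovary-high genes. At the far end, 524 genes were over 128-fold higher in brain and 564 over 128-fold higher in ovary. In whole organs, fewer cells of a type and less RNA per cell cannot be told apart. Which organ had more genes in its favour depended on the scaling: with DESeq2 size factors the median of all genes moved by 0.20 on the log2 scale and the split was 10664 in brain and 10452 in ovary, and with upper-quartile factors it moved by 0.42 and the split was 11451 and 9708. Without P. formosa fish 11 the split was 10456 and 10849.

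The genes with the largest differences were present in one organ and absent or nearly absent from the other in all 8 fish. Only genes without overlap between the organs were taken. Gene 103145634 had 11.1, 8.18, 6.37 and 11.4 CPM in the brains of P. formosa 3, 4, 11 and 12 and 11.5, 14.1, 14.0 and 12.0 CPM in the brains of hybrids 4, 10, 12 and 13, with no count in any ovary. Against a floor of 3 counts over the 8 ovaries it was at least 1174-fold higher in brain (edgeR adjusted p = 3.7e-04). Gene 107833216 was also counted in every brain, at 3.97 to 7.42 CPM with a median of 5.15, and in no ovary, at least 561-fold higher in brain (edgeR adjusted p = 6.8e-04). For 103145634 all P. formosa brains lay below all hybrid brains, though the nearest were 11.43 and 11.46 CPM, and for 107833216 the genotypes overlapped. With no ovary count in either genotype, the edgeR test of the interaction of organ and genotype cannot decide for these genes. It called neither, which does not show that the genotypes agree. A limma test for an interaction within 2-fold in either direction was passed by neither gene (adjusted p = 0.301 for 103145634 and 0.161 for 107833216).

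The largest ovary-high gene was abundant. Gene 103134143 had 5 counts over the 8 brains and 183.8 to 229 CPM in the ovaries, with a median of 206 (edgeR adjusted p = 4.2e-10). It stood at 214, 185, 184 and 202 CPM in P. formosa ovaries and at 199, 210, 209 and 229 CPM in hybrid ovaries, and these ranges overlapped. Gene 103142664 had no count in any brain, 25.9, 33.3, 30.6 and 31.3 CPM in P. formosa ovaries, and 22.8, 17.1, 7.60 and 7.74 CPM in hybrid ovaries, at least 2321-fold higher in ovary over the 8 fish (edgeR adjusted p = 2.0e-04). All P. formosa ovaries lay above all hybrid ovaries for this gene, and hybrids 12 and 13 were lowest.

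**Figure D2:**
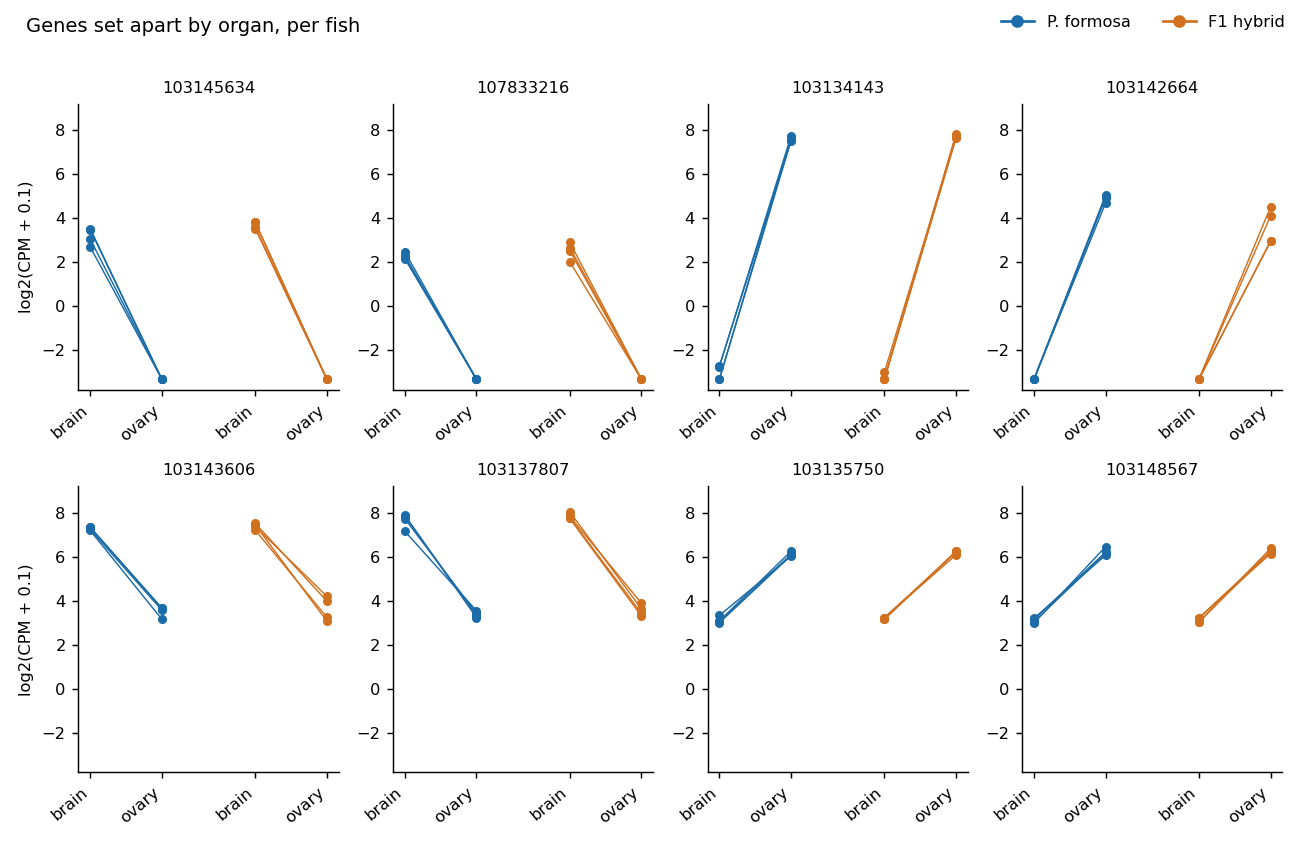
Level of 8 genes as log2(CPM + 0.1) in brain and ovary of each fish, blue for P. formosa and orange for F1 hybrids, with a line for each fish. The upper row holds the genes with the largest organ differences, which lie near the bottom of the axis in one organ. The lower row holds genes whose organ difference was bounded as the same in both genotypes, with lines that run alike.

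Few genes were counted in 1 of the organs only. With at least 1 CPM in all 8 libraries of an organ and at most 3 counts over the 8 of the other, 31 genes were limited to brain and 77 to ovary, and 7 and 31 of these had no count at all in the other organ. Their levels were modest, with a median of 2.99 CPM for the brain genes and 4.48 CPM for the ovary genes and highest values of 14.4 and 43.5 CPM. None of them reached 100 CPM, and 103134143 was left out by its 5 counts in brain.

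Liver libraries of the same 8 fish, which took no part in choosing these genes, were set beside them as a further organ. The brain and ovary values that liver is compared with did choose them, and the shares over all genes tested were not taken. Of the 3844 genes over 8-fold higher in brain, 67.8% were also over 8-fold below brain in liver, and 10.1% were within 2-fold of brain there. Of the 3503 genes over 8-fold higher in ovary, 60.7% were over 8-fold below ovary in liver and 7.59% were within 2-fold of it. Liver was within 2-fold of the low organ more often for the ovary-high genes (50.5%, liver close to brain) than for the brain-high genes (33.5%, liver close to ovary). The median liver level of the brain-high genes was -1.98 on the log2 CPM scale, under their ovary median of -1.39. That of the ovary-high genes was -0.44, above their brain median of -0.87.

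Taken in each genotype apart, the organ difference had nearly the same extent. In P. formosa 20298 genes were called (83.1%) and in the hybrids 20267 (83%). In P. formosa 9798 genes were higher in brain and 10500 in ovary (40.1% and 43% of those tested), and in the hybrids 9974 and 10293 (40.8% and 42.1%). The lists share no library. They had 8695 brain-high genes in common, 88.7% of the P. formosa list and 87.2% of the hybrid list, and 9276 ovary-high genes, 88.3% and 90.1%. Over the 17608 genes with at least 5 CPM in the higher organ, the organ differences of the genotypes correlated with r = 0.96 (Pearson) and 0.96 (Spearman), across genes that are not independent of each other. Each genotype was scaled by itself, and in the hybrids this placed the median of all genes at -0.01, against -0.23 when scaled with the clone, so differences of about that size between the separate fits cannot be told apart from the scaling.

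Large organ differences were mostly found again in the other genotype. Of 4215 genes over 8-fold higher in hybrid brain (17.3% of those tested), 99.3% also had the higher level in P. formosa brain, 97.9% were called so and 80.7% were again over 8-fold. Of 3339 genes over 8-fold higher in hybrid ovary (13.7%), 97.5% kept the direction in P. formosa, 93.4% were called so and 83.2% were over 8-fold. Read the other way, 95.2% of the 4047 P. formosa brain genes (16.6% of those tested) and 96.3% of the 3372 P. formosa ovary genes (13.8%) were called in the hybrids, and 84.0% and 82.4% were over 8-fold. On a common scale the median difference of the hybrid-chosen brain genes was 4.00 in P. formosa and 4.11 in the hybrids, and that of the P. formosa-chosen brain genes was 4.15 and 4.14. For ovary genes the medians were -4.01 and -4.34 when chosen in the hybrids and -4.08 and -4.20 when chosen in P. formosa.

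The brains of hybrids 11 and 14, siblings with no ovary library analysed here, gave a further reading. Of the 4215 genes over 8-fold higher in brain in the other hybrids, 99.1% were higher in both of these brains than in any of the 4 hybrid ovaries. Of the 3339 over 8-fold higher in ovary, 98.7% were lower in both than in any ovary. Over all called genes the shares were 90.8% of 9974 and 98.4% of 10293. Only the brain side of this reading is new, since the 4 ovaries also took part in choosing the genes. The share over all genes tested was not taken.

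**Figure D3:**
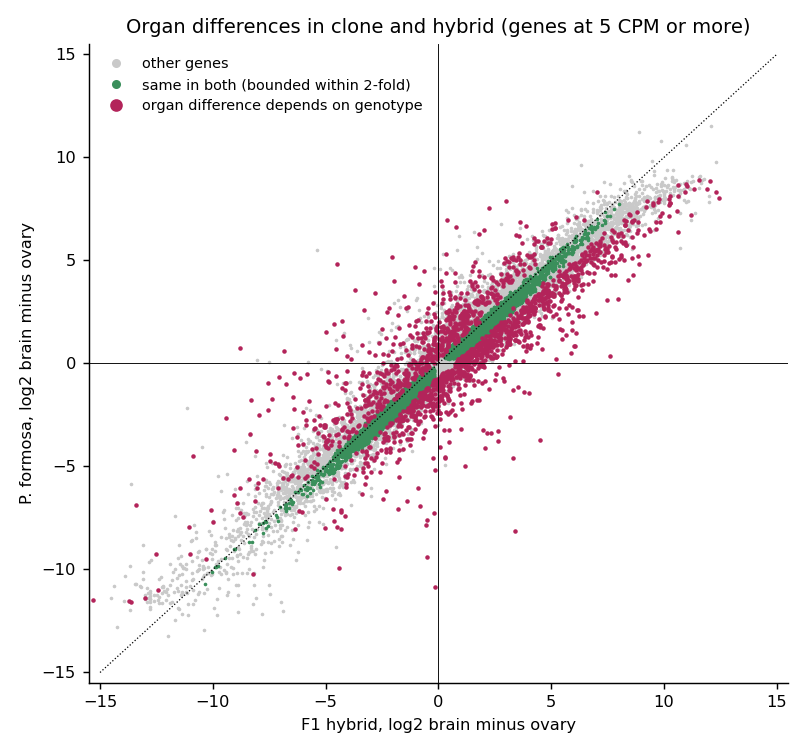
Log2 difference of brain minus ovary in P. formosa (vertical) against F1 hybrids (horizontal) for the 17608 genes with at least 5 CPM in the higher organ, each genotype scaled by itself. Green points were bounded as the same within 2-fold, red points had a called interaction of organ and genotype, and the dotted line marks equal values. Most points follow the line, and red points in the upper left and lower right quadrants changed direction between the genotypes.

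To say that a difference was the same, a bound is needed, since a p that misses the threshold does not show sameness. The interaction of organ and genotype was therefore tested for lying within 2-fold in either direction, with 2 one-sided moderated tests in limma on voom values, adjusted over all genes. It was bounded for 9564 genes (39.2% of those tested). Of these, 7800 (31.9%) were also called in the same direction in both genotypes, 2806 higher in brain and 4994 higher in ovary (3290 and 5632 without P. formosa fish 11). These make up 32.3% of the brain-high and 53.8% of the ovary-high genes that both genotypes shared. With all fish the brain-high genes sat lower, at a median of 18.5 CPM in brain against 37.6 CPM in ovary, and differed by more. Low level and large differences both went with fewer genes called the same, as given below, and the lists were not matched for them. A contrast remained for large differences at 50 CPM or more, with 323 of 1324 brain-high and 620 of 1427 ovary-high genes. Whether level and size account for the contrast was not tested. A bound of 0.5 on the log2 scale was met by 0 genes after adjustment (limma). Sameness is thus shown here to within 2-fold, and no bound between these was tried.

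The share of genes called the same went with the precision of their values. The median half-width of the 95% interval of the interaction was 1.71 on the log2 scale for genes under 1 CPM, 0.77 for genes from 5 to 20 CPM and 0.40 from 50 to 200 CPM. The share called the same was 0% of 2683, 21.1% of 4849 and 57.1% of 6645 genes in those classes. The share with a called interaction varied less, at 4.25%, 11.8% and 9.48%. Genes with large organ differences were less often bounded. Among genes at 5 CPM or more the share called the same was 62.0% for differences of 2-fold to 8-fold, 34.9% for 8-fold to 32-fold and 9.04% over 32-fold. Of the last class 99.9% had the same sign in both genotypes. The classes were set by the difference over the same 8 fish, so a shared sign is nearly given there and does not show sameness.

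**Figure D4:**
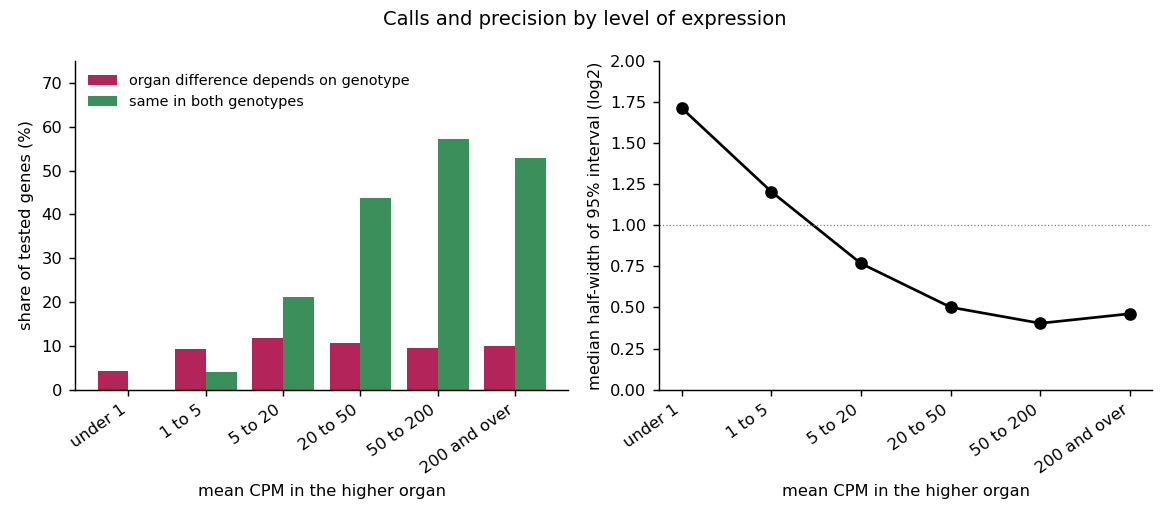
Left, share of tested genes (in percent) with a called interaction (red) and with an organ difference called the same in both genotypes (green), by mean CPM in the higher organ. Right, median half-width of the 95% interval of the interaction on the log2 scale, with the 2-fold bound as a dotted line. The interval shrinks from 1.71 under 1 CPM to 0.40 at 50 to 200 CPM, and the green share is highest there, at 57.1%.

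The 4 genes named here illustrate an organ difference that was the same in clone and hybrid. Gene 103143606 had 155 ± 7.61 CPM in P. formosa brain and 11.4 ± 1.77 CPM in P. formosa ovary, and 169 ± 14.9 CPM in hybrid brain and 12.9 ± 4.83 CPM in hybrid ovary (SD, n = 4 each). Its interaction was 0.03 on the log2 scale (95% interval -0.53 to 0.58, limma). Gene 103137807 had 206 ± 43.4 and 10.3 ± 0.98 CPM in P. formosa brain and ovary, and 231 ± 22.0 and 11.8 ± 2.17 CPM in hybrid brain and ovary, with an interaction of 0.01 (-0.51 to 0.53, limma). In the first gene all 8 brains lay above 146 CPM and all ovaries under 18.3 CPM, and in the second P. formosa brain 11 was lowest, at 143 CPM against 212 to 238 CPM in the other P. formosa brains.

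Among the ovary-high genes, 103135750 had 8.58 ± 0.94 CPM in brain and 69.2 ± 4.87 CPM in ovary of P. formosa, and 9.05 ± 0.27 and 73.2 ± 3.72 CPM in brain and ovary of the hybrids (SD, n = 4 each), with an interaction of 0.00 (-0.35 to 0.35, limma). Gene 103148567 had 8.45 ± 0.59 and 75.3 ± 8.97 CPM in P. formosa brain and ovary, and 8.62 ± 0.65 and 76.4 ± 5.26 CPM in hybrid brain and ovary, with an interaction of -0.00 (-0.40 to 0.40, limma). Both differed about as much between organs in every fish, and the genotypes overlapped in each organ. These genes were taken because their interaction was smallest among those over 8-fold and at 50 CPM or more, of which 323 of 1324 brain-high and 620 of 1427 ovary-high genes were called the same.

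A smaller group of genes had an organ difference that differed between the clone and hybrid fish. The interaction was called for 2334 genes, 9.55% of those tested (edgeR quasi-likelihood test, fish as block): the brain minus ovary difference was more positive in P. formosa for 1048 (4.29%) and more positive in the hybrids for 1286 (5.26%). The median size of these interactions was 1.56 on the log2 scale, and 413 exceeded 8-fold. The counts depended on single fish, with 1139 genes called without P. formosa fish 4, 1451 without hybrid 10 and 1433 without hybrid 13. They were 1031 without P. formosa fish 4 and 11, and 4518 by DESeq2. Without P. formosa fish 11 alone 2110 genes were called, 1808 of them as with all fish. Without hybrid 12, 690 genes were more positive in P. formosa.

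Among the interaction genes the genotypes were called apart more often in the ovary than in the brain. Each organ was also tested by itself between P. formosa and hybrids on these libraries. Of the 2334 genes, 1686 (72.2%) differed between the genotypes in ovary alone, 1030 of them higher and 656 lower in P. formosa ovary. Another 197 (8.44%) differed in brain alone, 134 higher and 63 lower in P. formosa brain, 75 differed in both organs in opposite directions, 43 in both in the same direction and 333 in neither. The median genotype difference of the interaction genes was 1.08 on the log2 scale in ovary and 0.37 in brain, against 0.30 and 0.26 over all genes tested. The genotype difference was larger in ovary for 72.8% of the interaction genes and for 53.0% of all genes tested. Over all genes tested, 837 were called between the genotypes in brain and 6016 in ovary, so a gene called in ovary alone is not shown to be alike in brain. In ovary alone 5644 genes were called, 1686 of them with an interaction. In brain alone 465 were called, 197 of them with an interaction. The share in ovary alone thus goes with the greater number of ovary calls. Without P. formosa fish 4 and 11 the shares of the 1031 genes were 70.7% in ovary alone and 10.3% in brain alone. By their label numbers the libraries form 2 runs, with all P. formosa libraries and those of hybrids 4 and 10 in the lower run and those of hybrids 11 to 14 in the higher, and the labels do not say what the runs stand for. With hybrids 4 and 10 only, or 12 and 13 only, 84.6% and 86.1% differed in ovary alone. The genotype calls over all genes tested were then more uneven. They numbered 286 in brain and 6982 in ovary with hybrids 4 and 10, and 223 and 9327 with hybrids 12 and 13. These shares too go with the number of ovary calls. The brains of hybrids 11 and 14, of the same brood, took no part in choosing the 197 brain-only genes. For 178 of these genes (90.4%) both lay on the hybrid side of all 4 P. formosa brains. Those P. formosa brains did take part in the choice, and the share over all genes tested was not taken.

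Most interactions changed the size of an organ difference and left its direction as it was. For 900 genes (38.6%) the difference was called in the same direction in both genotypes and was smaller in P. formosa, and for 508 (21.8%) it was larger in P. formosa. With all fish the imbalance lay mainly in brain-high genes, where 646 were smaller and 297 larger in P. formosa, while among ovary-high genes 254 were smaller and 211 larger. This split by organ was not counted again without P. formosa fish 4 and 11, whose brains stood apart, or with other scalings. The direction of called interactions moved with the scaling. With DESeq2 size factors 872 were more positive in P. formosa and 1515 in the hybrids, and with upper-quartile factors 1038 and 1127. A shift of that kind moves brain-high and ovary-high genes to opposite sides of this split. The share smaller in P. formosa over all genes called in both genotypes was not taken. Interaction genes smaller in P. formosa made up 63.9% of the 2 kinds together and 53.0% without P. formosa fish 4 and 11, where 336 were smaller and 298 larger. They made up 59.4% (without P. formosa fish 11) to 71.9% (without fish 3) with 1 fish left out, while at least 1 of the counts fell by over 1.5 times without P. formosa fish 4 or 12 or hybrid 4, 10, 12 or 13. A further 16.9% of the interaction genes were called between organs in P. formosa alone and 13.7% in the hybrids alone.

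In 3 of the named genes the interaction came with a difference between the genotypes in ovary and little signal in brain. Gene 103149744 had 0.0257 to 0.326 CPM in P. formosa ovaries and 164, 155, 155 and 164 CPM in the ovaries of hybrids 4, 10, 12 and 13, and at most 0.333 CPM in P. formosa brains and 0.659 CPM in hybrid brains. Its brain minus ovary difference was 9.71 more positive in P. formosa on the log2 scale (edgeR adjusted p = 2.0e-04). In the opposite direction, gene 103149036 had 18.3, 21.5, 20.2 and 19.4 CPM in P. formosa ovaries and was not counted in any hybrid ovary, which puts it at least 1054-fold higher in P. formosa ovary, and at most 0.155 CPM in any brain (interaction adjusted p = 0.0173, edgeR). Without hybrid 10, or with hybrids 12 and 13 only, no hybrid library held a count of it: the fitted interaction, whose size then depends on the prior count, was -8.17 on the log2 scale in both cases and was not called (adjusted p = 1, edgeR), while the ovary levels stayed as given. Gene 103129336 had 31.5, 28.5, 26.2 and 29.7 CPM in P. formosa ovaries, 0.0247 to 0.128 CPM in hybrid ovaries and at most 0.105 CPM in any brain (interaction adjusted p = 9.2e-04, edgeR). Each of these genes was an ovary gene in one genotype and close to silent in all other libraries, with no overlap between the ovaries of the genotypes. A lack of overlap between the genotypes in the per-fish organ differences was required when these genes were chosen.

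In 226 genes (0.925% of those tested) the organ difference was called in opposite directions in the genotypes, 82 higher in brain in P. formosa and in ovary in the hybrids and 144 the other way round. The interaction was called for 205 of the 226. Gene 103140610 had 1.25, 0.516, 1.62 and 5.04 CPM in the brains of P. formosa 3, 4, 11 and 12, against 0, 0, 0.278 and 0.0506 CPM in their ovaries. In hybrids 4, 10, 12 and 13 it had 0.8294, 0.416, 0.366 and 0.566 CPM in brain, against 13.2, 13.2, 15.1 and 14.8 CPM in ovary. It was thus higher in brain in every P. formosa fish and higher in ovary in every hybrid (edgeR adjusted p = 0.0039 in P. formosa, 2.2e-05 in the hybrids and 5.4e-04 for the interaction). The brain levels of the genotypes overlapped, while all hybrid ovaries lay above all P. formosa ovaries.

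The mirror case was found in genes under 5 CPM in every library. Gene 103132716 had no count in P. formosa brains and 0.154, 0.201, 0.203 and 0.278 CPM in P. formosa ovaries, and 3.37, 3.84, 3.08 and 4.87 CPM in hybrid brains and no count in hybrid ovaries. It was at least 11.1-fold lower in brain than in ovary in P. formosa and at least 199.5-fold higher in brain in the hybrids (edgeR interaction adjusted p = 0.0162). Gene 107833939 had 0.0488, 0, 0 and 0 CPM in brain and 0.591, 0.427, 0.557 and 0.152 CPM in ovary of P. formosa, and 2.07, 1.44, 1.28 and 4.81 CPM in brain and 0.0485, 0.198, 0 and 0.0523 CPM in ovary of the hybrids (edgeR interaction adjusted p = 0.0019). Both were brain genes in the hybrids, and in P. formosa their ovary level was a small fraction of the hybrid brain level.

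Gene 103139213 was called in opposite directions with widely spread values. It had 0.0488, 10.0, 110.0 and 0.713 CPM in the brains of P. formosa 3, 4, 11 and 12, against 0.103 to 0.276 CPM in their ovaries, and no count in hybrid brains, against 0.0262 to 0.364 CPM in hybrid ovaries. The organ difference was called in each genotype (edgeR adjusted p = 0.0242 in P. formosa and 0.0405 in the hybrids), but the interaction was not (adjusted p = 0.116). In P. formosa the difference was 5.51 on the log2 scale with all fish, 5.35 without fish 4 (edgeR adjusted p = 0.130), 3.35 without fish 11 (adjusted p = 0.0429) and 1.37 without both (adjusted p = 0.264). The hybrid call was lost without any 1 of the 4 hybrids (edgeR adjusted p = 0.0501 to 0.126) and by DESeq2 (adjusted p = 0.0757). P. formosa brain 3 lay below its own ovary, and brain 11 held 4144 of the 4564 counts of the 4 brains.

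**Figure D5:**
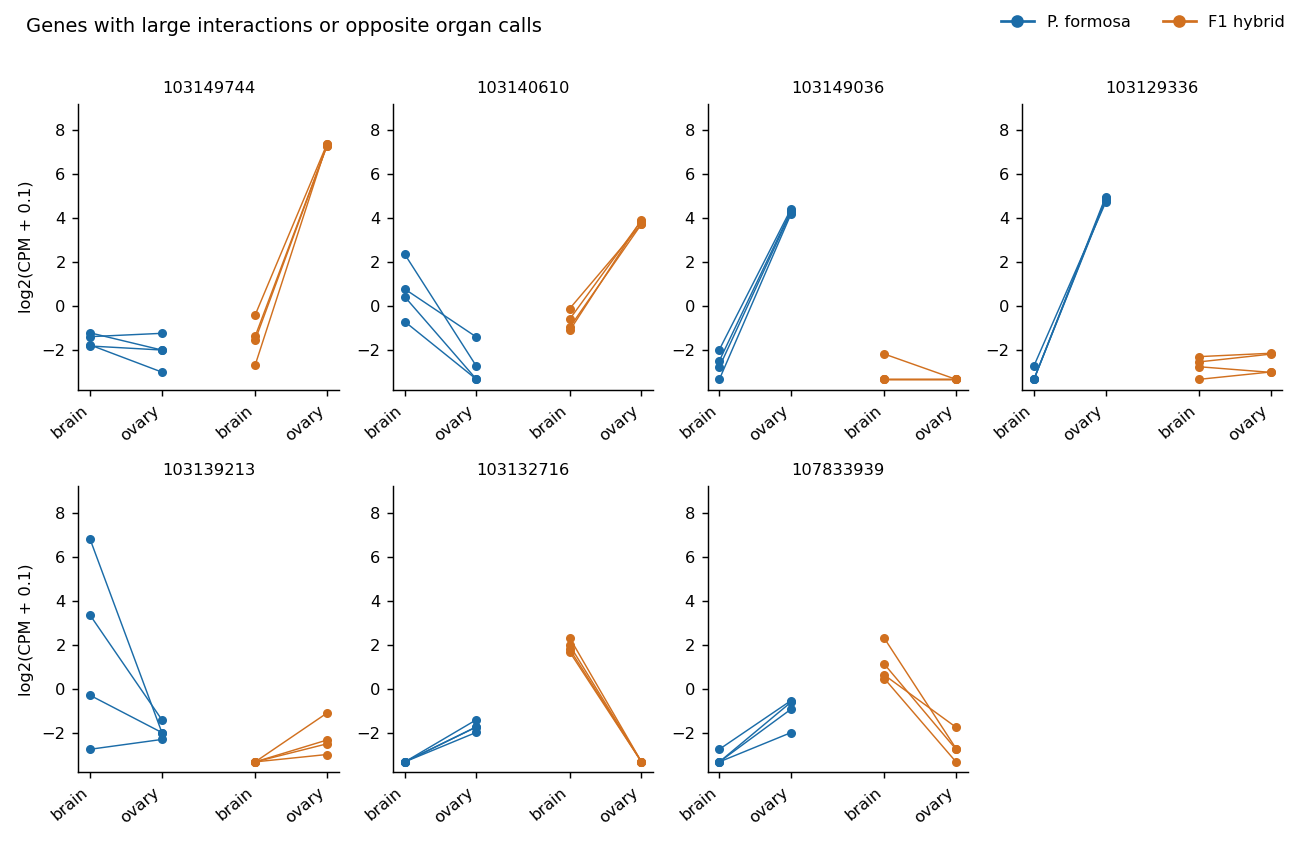
Level of 7 genes as log2(CPM + 0.1) in brain and ovary of each fish, blue for P. formosa and orange for F1 hybrids, with a line for each fish. In the upper row the ovary level differs between the genotypes for each gene, as for 103149744 with at most 0.326 CPM in P. formosa and at least 155 CPM in hybrid ovaries. In the lower row 103139213 varies widely among P. formosa brains, and the other 2 genes are counted in hybrid brain and in P. formosa ovary.

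Fish of a genotype shared their organ differences closely, with P. formosa fish 11 furthest from its siblings. Over the 17608 genes at 5 CPM or more, the per-fish differences of brain minus ovary correlated at 0.94 to 0.99 between P. formosa fish, at 0.97 to 0.99 between hybrids and at 0.89 to 0.97 between the genotypes. The median deviation of a fish from the mean of its siblings was 0.299, 0.159, 0.444 and 0.213 on the log2 scale for P. formosa 3, 4, 11 and 12, and 0.236, 0.224, 0.275 and 0.233 for hybrids 4, 10, 12 and 13. Fish 11 had 2022 genes over 8-fold higher in ovary, against 2411 to 2756 in its siblings.

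The departure of fish 11 was clearest in its brain. Genes over 8-fold higher in hybrid brain, a choice made without P. formosa, took 24.997% of the counts of P. formosa brain 11 and 33.9% to 37.6% of the counts of the other P. formosa brains. Genes over 8-fold higher in hybrid ovary took 2.97% of brain 11, and 1.18%, 1.65% and 1.32% of brains 3, 4 and 12. By their median level brain 4 was close to brain 11, at -0.11 and -0.03 on the log2 CPM scale. Brains 3 and 12 were at -0.71 and -0.39. In the ovaries the same genes took 31.1% to 32.1% in all P. formosa fish, and the brain genes 1.32% to 1.52%. By these shares fish 11 had less RNA from brain-high genes and more from ovary-high genes in its brain library, while its ovary library was near those of its siblings. By median level the brain genes were highest in ovary 11, at -0.13 on the log2 CPM scale. In ovaries 3, 4 and 12 they were at -0.58, -0.32 and -0.35. Markers of other cell types could not be looked up, and what part other tissue in that library had in these values was not tested.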

How the data were processed

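Per the labels, RNA came from a TRIzol extraction with DNase treatment, and libraries followed the TruSeq mRNA protocol. The authors deposited 1 table of raw read counts per gene. The submitters' processing notes name TopHat2 and featureCounts; build, annotation and strand setting are not given in the sources used here. Genes that overlap or have near-identical copies are uncertain. Columns were matched by name, with 0 left unused. Libraries differed beyond sampling noise (lowest chi-square per degree of freedom 11.4).

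Genes were filtered with filterByExpr (24429 of 31997 kept), scaled with TMM and tested with edgeR 4.0.16 in R 4.3.3, by the robust quasi-likelihood test with fish as block and Benjamini-Hochberg adjustment at 0.05. Each genotype was tested on the same genes with its own scaling. The equivalence test used limma 3.58.1. DESeq2 1.42.0 was an alternative. Log2 values are brain minus ovary, and interactions are P. formosa minus hybrid. Fish are paired because both organs come from 1 animal, per the labels; brain and ovary deviations of a fish correlated at -0.05 to 0.19. Named genes are the 2 per direction with the largest organ difference, interaction or opposite calls, or the smallest interaction among shared genes, with level and overlap limits. The members and lists were chosen with earlier results of these data known. Lists of pathways and markers by symbol could not be run, since the IDs carry no names. Floors on fold differences cover counting error only, and PCR copies were counted as reads. The intervals of the interaction come from the moderated limma fit on voom values, so they also reflect variation between fish.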

Additional observations from a re-analysis of the deposited data

Results flagged for a closer look

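The organ difference differed between the genotypes, by the test of the interaction, for 2334 genes, with genotype and run of library numbers partly confounded. The genotypes also differed in the gap between brain and ovary in the number of genes at 1 CPM or more (adjusted p = 0.0429, exact permutation test) and in the number of genes that hold 50% of the counts (adjusted p = 0.0429, exact permutation test). Among the named genes the interaction was called for 103149744 (adjusted p = 2.0e-04, edgeR), 103140610 (5.4e-04), 103149036 (0.0173), 103129336 (9.2e-04), 103132716 (0.0162) and 107833939 (0.0019).

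Of 73 groups of 4 libraries or fish checked, 2 held a value far from the others, where chance alone gives about 5%. Gene 103139213 stood at 110.0 CPM in P. formosa brain 11 and at 0.0488 to 10.0 CPM in the other P. formosa brains. Gene 103149036 had 0.122 CPM in the brain of hybrid 10 and no count in the other 3 hybrid brains, and without that fish, as with hybrids 12 and 13 only, its fitted interaction was -8.17 on the log2 scale, against -11.53 with all fish, and was not called (adjusted p = 1, edgeR). The fitted sizes depend on the prior count where no hybrid library holds a count.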

How the results depend on the processing

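The counts of organ differences over 8 fish and in each genotype stayed within 1.5 times of those reported under every alternative run. The gap between brain and ovary in detected genes stayed past the threshold, while its difference between the genotypes was not run under alternatives. Called interactions numbered 4518 by DESeq2, 1031 without P. formosa fish 4 and 11, 975 with hybrids 4 and 10 only, and 1529 with hybrids 12 and 13 only. Without the fish as a replicate block 3903 were called, of which 2211 were among the 2334, and 1975 were more positive in P. formosa; without the block the counts of organ differences stayed within 1.5 times. Leaving out 1 fish gave 1139 to 2110 called interactions, lowest without P. formosa fish 4, with 458 to 1028 more positive in P. formosa and 681 to 1145 in the hybrids. Genes called the same and higher in brain numbered 1695 with hybrids 12 and 13 only, and 2024 to 3290 with 1 fish left out. At a bound of 0.5 on the log2 scale 0 brain-high and 0 ovary-high genes were called the same (limma), against 1043 and 2732 at an unadjusted p under 0.05. With DESeq2 size factors the median interaction shifted by -0.11. Smaller organ differences in P. formosa outnumbered larger ones in every setting run. The cause of these changes was not tested. Depth limits genes under 1 CPM, of which none could be called the same.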

Other observations

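The numeric IDs fall into 2 blocks, those that start with 1031 (26169 IDs) and those that start with 1078 (5828 IDs). Among tested IDs the second block held a larger share of brain genes: of its 1983 tested IDs 58.3% were higher in brain and 27.2% in ovary, against 39.3% and 47.1% of the 22446 tested IDs of the first block (edgeR, adjusted p under 0.05). Over 8-fold differences went the same way, with 31.1% of the 1078 block over 8-fold higher in brain and 13.7% in ovary, against 14.4% each in the 1031 block. The 1078 block sat lower, at a median of 1.66 CPM in the higher organ against 27.3 CPM, and 34.0% of its IDs were tested against 85.8%. The interaction was called for 6.76% of the 1078 block and 9.80% of the 1031 block. The difference between the blocks itself was not tested, and their levels differ.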
